A study of Mus musculus with 1049 samples.

Results

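Sterol synthesis and its regulation were followed through 28 genes in single dermal fibroblasts of mice of 3 ages. The genes were listed by their step in the pathway: 21 enzymes listed for the synthesis of cholesterol and its isoprenoid precursors, 4 genes listed for Srebf2 control, the transcription factor Srebf2 among them, and 3 genes of sterol transport and storage. They are 28 of the 51777 genes counted on every plate, and all 28 were among the 16684 genes that passed a filter on low counts. The mice were C57Bl/6, unmodified and untreated as far as the labels state. Newborn mice were 1.5 to 2.5 days old, described as female littermates. Young mice were 2 months old and old mice 18 months old, with no sex stated for either. Cells were released from skin with collagenase and sorted by flow cytometry into plate wells, 1 cell per well, and a separate antibody panel is described for newborn skin, so age and panel cannot be told apart. Libraries were made with Smart-seq2, which copies whole polyadenylated transcripts and carries no molecular identifiers.

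Cholesterol is built from acetyl-CoA through mevalonate, isoprenoid diphosphates, squalene and lanosterol. When membranes of the endoplasmic reticulum hold little sterol, Scap carries the Srebf2 protein to the Golgi, where it is cleaved into an active factor that switches on most enzymes of the chain. Insig1 and Insig2 hold the complex back when sterol is plentiful. Surplus sterol is esterified by Soat1 or exported by Abca1, whose gene is switched on by the oxysterol-sensing LXR receptors.

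Each plate carried cells of all 3 ages, 5 plates in experiment 1 and 4 in experiment 2, and 735 of 861 wells were kept: 249 newborn, 246 young and 240 old. Kept cells held 246349 to 4331293 reads on genes. The reads of the kept cells were summed by age and experiment. This gave 6 sums of 119682449 to 195324769 reads, 2 per age. Experiments are labelled but mice are not, so every p-value measures only the spread between these sums. All 96 index pairs that name wells were used on more than 1 plate, and wells of the same name on different plates had a median correlation of at most 0.43, against 0.994 between 2 runs of 1 plate. The 6 fibroblast markers (Col1a1, Col1a2, Col3a1, Dcn, Lum, Pdgfra) summed to 66280 to 183979 CPM (counts per 1000000 reads of a sum), and every kept cell had a read on at least 1 of them. Of lipid-forming cell types, 5 sebocyte markers summed to at most 4.36 CPM and 5 adipocyte markers to at most 5.94 CPM in any sum. Markers of proliferation differed by age: 6 cycling genes summed to 524 and 258 CPM in the newborn sums, 4.21 and 0 CPM in the young sums and 0.0136 and 16 CPM in the old sums. At an equal depth of 100000 reads per cell, the median number of genes read was 1794 and 2236 in newborn cells, 1647.5 and 2037.5 in young cells, and 1508.5 and 1720.5 in old cells of experiments 1 and 2.

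RefSeq start-site windows (GRCm38.p6, 250 bases before to 50 after the start) were at hand for 23 of the 28 genes, 29 windows in all. The short forms of 3 motifs were searched on both strands: TCACNCCAC, the core of a sterol regulatory element to which Srebf2 binds; CCAAT, the box of the factor NF-Y; and GGGCGG, the box of Sp1. TCACNCCAC was found in the window of Hmgcs1 alone, against 1.24% of 32851 windows in the table. CCAAT was found in 20 of the 29 windows (69.0%, against 37.4% of all windows), and GGGCGG in 24 (82.8%, against 35.7%). The 250 bases before the start are shown 5′ to 3′ along the gene for 4 genes, with matches in capitals and no 2 matches overlapping: Hmgcs1 for its sterol element, Mvk and Cyp51 as enzymes that were lower at both adult ages, and Abca1 as the gene that was higher at both. Hmgcs1 lies on the plus strand (chr13:119690101-119690350), Mvk on the plus strand (chr5:114444019-114444268), Cyp51 on the minus strand (chr5:4104698-4104947) and Abca1 on the minus strand (chr4:53159896-53160145).
Hmgcs1: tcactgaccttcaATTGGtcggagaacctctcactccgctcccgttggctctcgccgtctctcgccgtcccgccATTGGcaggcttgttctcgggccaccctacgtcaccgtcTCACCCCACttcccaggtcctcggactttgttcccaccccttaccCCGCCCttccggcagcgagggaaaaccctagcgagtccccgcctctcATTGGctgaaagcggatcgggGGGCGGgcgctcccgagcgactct
Mvk: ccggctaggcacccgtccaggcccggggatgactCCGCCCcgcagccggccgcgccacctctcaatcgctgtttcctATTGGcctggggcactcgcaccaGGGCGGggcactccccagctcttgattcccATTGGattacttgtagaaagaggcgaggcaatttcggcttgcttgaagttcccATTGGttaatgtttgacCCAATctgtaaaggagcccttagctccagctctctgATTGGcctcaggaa
Cyp51: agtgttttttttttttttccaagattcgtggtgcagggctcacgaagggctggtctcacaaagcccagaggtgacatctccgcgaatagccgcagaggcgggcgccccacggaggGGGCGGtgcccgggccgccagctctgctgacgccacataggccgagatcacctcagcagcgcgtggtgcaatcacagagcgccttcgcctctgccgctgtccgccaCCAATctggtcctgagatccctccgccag
Abca1: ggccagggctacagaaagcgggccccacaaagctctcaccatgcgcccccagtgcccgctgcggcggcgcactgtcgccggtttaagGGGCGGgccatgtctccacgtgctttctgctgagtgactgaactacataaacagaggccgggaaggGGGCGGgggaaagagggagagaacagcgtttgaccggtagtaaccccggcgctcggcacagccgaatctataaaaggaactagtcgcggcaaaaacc
The Hmgcs1 stretch holds 1 sterol element with 3 CCAAT and 2 GGGCGG matches, the Mvk stretch 5 CCAAT and 2 GGGCGG matches, and the Cyp51 stretch 1 of each of these 2 boxes. The Abca1 stretch holds 2 GGGCGG matches and no CCAAT. A match describes these letters and is no evidence of binding.

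Many synthesis enzymes had lower levels in the adult sums than in the newborn sums, whereas the exporter Abca1 had higher ones, yet none of the 28 genes passed the test. Young against newborn, the edgeR quasi-likelihood test, with p-values adjusted by Benjamini and Hochberg, called 0 of 28 sterol genes at an adjusted p under 0.05, where it called 0.779% of all genes tested. An unadjusted p under 0.05 was found for 4 of the 28, against 13.3% of all genes. Old against newborn it called 0 of 28, against 0.935% of all genes, and 5 had an unadjusted p under 0.05, against 15.2%. Old against young it called 0 of 28 and 0.0% of all genes, and 1 had an unadjusted p under 0.05, against 4.85%.

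In level, 13 of the 28 genes were lower in both young sums than in both newborn sums, against 25.1% of all genes, and 3 were higher, against 22.1%. Both old sums lay below both newborn sums for 12 genes (25.7% of all genes) and above for 2 (21.6%). Both old sums lay below both young sums for 7 genes (15.9% of all genes) and above for 5 (15.0%). The median log2 fold change of the 28 genes was -0.86 for young against newborn, where all genes had -0.07. It was -1.03 for old against newborn, where all genes had -0.08, and -0.07 for old against young, where all genes had 0.0. The first and second of these comparisons share the newborn sums. Genes that the following account turns on include Pmvk (GRCm38 chr3:89454541-89469013, plus strand), Sqle (chr15:59315077-59331192, plus), Sc5d (chr9:42251595-42264256, minus) and Srebf2 (chr15:82147181-82205379, plus). The 21 enzymes, among which the mitochondrial thiolase Acat1 is counted at a mean of 176 CPM at every age, were also summed. They came to 1282.5 and 906 CPM in newborn sums, 696 and 781 CPM in young sums, and 647 and 735 CPM in old sums. Both newborn sums thus lay above all 4 adult sums, and the adult ages overlapped. The cycling markers given above also summed higher in newborn cells, and their part in these levels was not tested.

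**Figure D1:**
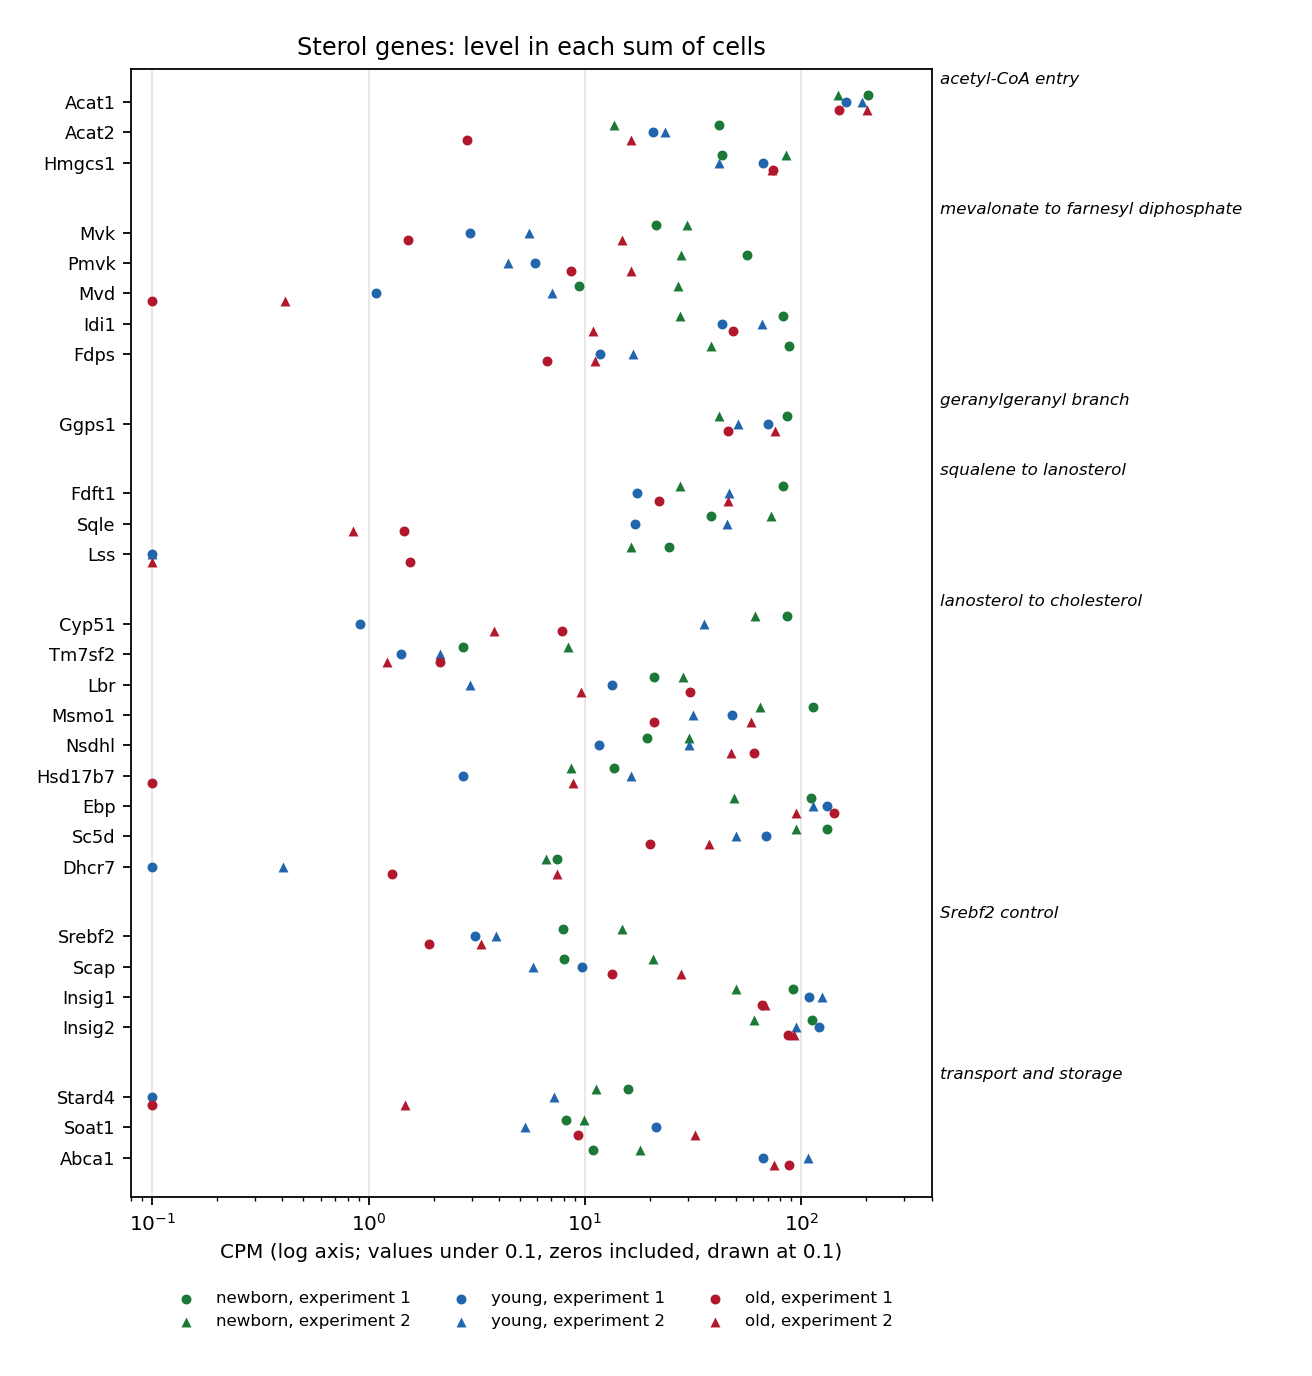
Level of the 28 sterol genes in each of the 6 sums, in CPM on a log axis, grouped by pathway step; circles are experiment 1, triangles experiment 2, and values under 0.1 are drawn at 0.1. Newborn points lie to the right of all adult points for Mvk, Pmvk, Fdps, Cyp51, Sc5d and Srebf2, and to the left for Abca1, at 10.9 and 17.9 CPM.

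In the first step, entry from acetyl-CoA, newborn and adult levels in CPM overlapped for all 3 genes. Their shares of cells with a read were lower in both old than in both newborn sums, as for 42.1% of all genes. For Hmgcs1 the nearest of these shares were 15.1% in old and 15.2% in newborn cells. Acat1, a mitochondrial acetoacetyl-CoA thiolase and the highest of the 28 genes per kilobase of exon (46.9 CPM per kilobase over all sums), had 204 and 148 CPM in newborn sums, 161 and 191 CPM in young sums, and 150.0 and 202 CPM in old sums. Its mean was 176 CPM at every age, with SDs of 39.5, 21.4 and 36.2 CPM. Hmgcs1, which joins acetyl-CoA to acetoacetyl-CoA to make HMG-CoA, had 43.0 and 85.2 CPM in newborn sums, 66.7 and 41.7 CPM in young sums, and 73.8 and 73.2 CPM in old sums; both old values lay above both young ones (log2 fold change 0.44 ± 0.46 SE, adjusted p = 1.0). Acat2, the cytosolic thiolase, had 41.6 and 13.6 CPM in newborn sums, 20.7 and 23.4 CPM in young sums, and 2.86 and 16.3 CPM in old sums. Both old sums of Acat2 lay below both young sums, at 9.57 ± 9.50 CPM in old and 22.1 ± 1.89 CPM in young cells (SD, n = 2; log2 fold change -1.20 ± 1.03 SE, adjusted p = 1.0). Acat2 shares near-identical transcript stretches with Acat3 and Tcp1, and only 55.1% of its non-zero counts were even, so its values depend on how shared reads were counted.

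The 5 genes from mevalonate to farnesyl diphosphate summed to 257 and 150.0 CPM in newborn sums, 64.7 and 99.8 CPM in young sums, and 65.1 and 53.6 CPM in old sums. Both newborn sums lay above all 4 adult sums for this step, and for 4 of its 5 genes. Pmvk, phosphomevalonate kinase, had 56.1 and 27.7 CPM in newborn sums, 5.89 and 4.43 CPM in young sums, and 8.66 and 16.4 CPM in old sums. It averaged 5.16 ± 1.03 CPM in young and 41.9 ± 20.1 CPM in newborn cells (SD, n = 2), an 8.12-fold lower level (log2 fold change -3.02 ± 0.71 SE, adjusted p = 0.195), and was 3.34-fold lower in old than in newborn cells (-1.74 ± 0.68, adjusted p = 0.324). Without the highest cell of each sum the young difference was -4.20 ± 1.11 (adjusted p = 0.184). Pmvk was read in only 3 and 4 cells of the young sums, and single cells held 49.9 and 82.4% of these reads. Leaving out that cell takes most from the young sums, so the larger difference is no further support. The share of cells with a read of Pmvk was lower in young than in newborn cells on 9 of 9 plates, and lower in old than in newborn cells on 9 of 9. The plates carry cells of the same 2 experiments and are not replicates. Against newborn cells, the median number of all genes read was also lower in young cells on 8 of 9 plates and in old cells on 9 of 9. The part of this in the Pmvk shares was not tested. Mvk, mevalonate kinase, had 21.3 and 29.7 CPM in newborn sums, 2.94 and 5.50 CPM in young sums, and 1.52 and 14.9 CPM in old sums. The log2 fold change of Mvk was -2.60 ± 1.27 SE (adjusted p = 0.484) for young against newborn and -1.64 ± 1.23 (adjusted p = 0.631) for old against newborn. Mvk was read in 23 of 249 newborn, 6 of 246 young and 7 of 240 old cells. Mvd, which decarboxylates mevalonate diphosphate, was sparse: it had 9.39 and 26.9 CPM in newborn sums, 1.08 and 7.04 CPM in young sums, and 0 and 0.412 CPM in old sums, and was read in 13 of 249 newborn, 3 of 246 young and 1 of 240 old cells.

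Fdps, the synthase of farnesyl diphosphate, had 87.6 and 38.1 CPM in newborn sums, 11.7 and 16.6 CPM in young sums, and 6.67 and 11.1 CPM in old sums, with both newborn values above every adult value. It was 4.43-fold lower in young than in newborn cells (log2 fold change -2.15 ± 0.63 SE, adjusted p = 0.258) and 7.07-fold lower in old than in newborn cells (-2.82 ± 0.65, adjusted p = 0.171). Fdps was read in 36 of 249 newborn, 10 of 246 young and 7 of 240 old cells. Its transcript has 5 near-identical copies in the annotation and overlaps another gene, and 43.4% of its non-zero counts were even, so the level is uncertain. Idi1, the isomerase that turns isopentenyl into dimethylallyl diphosphate, was the exception of this step in level: 82.3 and 27.5 CPM in newborn sums, 43.1 and 66.2 CPM in young sums, and 48.2 and 10.9 CPM in old sums overlapped at every pair of ages. It was no exception in share of cells. Idi1 was read in 29 of 249 newborn, 14 of 246 young and 6 of 240 old cells, with both newborn shares above every adult share. A single cell held 99.7% of its reads in the old sum of experiment 2. Ggps1, which extends farnesyl to geranylgeranyl diphosphate and so feeds protein prenylation instead of sterols, had 85.7 and 41.7 CPM in newborn sums, 70.0 and 50.9 CPM in young sums, and 46.1 and 75.5 CPM in old sums. Its mean was 63.7 ± 31.1 CPM in newborn, 60.4 ± 13.5 CPM in young and 60.8 ± 20.8 CPM in old cells (SD, n = 2).

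Among the 3 enzymes from squalene to lanosterol, Sqle was nearly unread in old cells. Sqle, squalene epoxidase, had 38.4 and 72.4 CPM in newborn sums, 17.0 and 45.3 CPM in young sums, and 1.46 and 0.846 CPM in old sums. Newborn and young values overlapped, and both old values lay below all others. It averaged 1.15 ± 0.437 CPM in old and 55.4 ± 24.0 CPM in newborn cells (SD, n = 2), a 48.0-fold lower level (log2 fold change -5.58 ± 0.85 SE), and its adjusted p of 0.0775 was the smallest of any of the 28 genes in any comparison. It was 27.0-fold lower in old than in young cells (-4.75 ± 0.81, adjusted p = 0.906). Few cells carried these reads. Sqle was read in 28 of 249 newborn cells (11.2%, 95% Clopper-Pearson interval 7.60 to 15.8%). It was read in 7 of 246 young cells (2.85%, 1.15 to 5.77%) and 2 of 240 old cells (0.833%, 0.101 to 2.98%). Intervals of this kind cover the counting of cells only. The highest cell of each young sum held 63.5 and 66.5% of its Sqle reads, and 1 cell held 46.6% of all young reads. For the old sums the highest cell held 100 and 94.7%, against 36.3 and 27.2% for the newborn sums.

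Lss, which closes squalene epoxide into lanosterol, had 24.6 and 16.3 CPM in newborn sums, 0 and 0 CPM in young sums, and 1.55 and 0 CPM in old sums. It was read in 9 of 249 newborn cells (3.61%), in 0 of 246 young cells, which 3 cells would make 1.22% and whose Clopper-Pearson interval reaches 1.49%, and in 1 of 240 old cells, so its reads lay in few cells at any age. Fdft1, squalene synthase, had 82.6 and 27.4 CPM in newborn sums, 17.5 and 46.4 CPM in young sums, and 21.9 and 45.9 CPM in old sums, and overlapped at every pair of ages. Fdft1 and Lss both overlap a gene on the other strand, and Fdft1 also has a near-identical copy.

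The 9 genes from lanosterol to cholesterol had a mean of 428 ± 109 CPM in newborn sums, 280.0 ± 3.06 CPM in young sums, and 276 ± 11.5 CPM in old sums (SD, n = 2). Both newborn sums lay above the 4 adult sums for the step as a whole, while single genes went both ways. Cyp51, which removes a methyl group from lanosterol, had 86.2 and 61.4 CPM in newborn sums, 0.918 and 35.7 CPM in young sums, and 7.82 and 3.81 CPM in old sums. It was 12.7-fold lower in old than in newborn cells (log2 fold change -3.67 ± 1.64 SE, adjusted p = 0.387) and 4.03-fold lower in young than in newborn cells (-2.01 ± 1.53, adjusted p = 0.680), and its young values differed between the experiments by more than its young and old means did. Cyp51 was read in 36 of 249 newborn, 8 of 246 young and 3 of 240 old cells. Single cells held 99.8 and 100% of its reads in the old sums. Sc5d, a late desaturase, had 132 and 94.1 CPM in newborn sums, 68.7 and 49.9 CPM in young sums, and 20.0 and 37.3 CPM in old sums, so no 2 ages overlapped and the order was newborn, young, old in both experiments. It averaged 28.6 ± 12.2 CPM in old and 113 ± 26.6 CPM in newborn cells (SD, n = 2; log2 fold change -1.98 ± 0.45 SE, adjusted p = 0.168), and the step between old and young was -1.05 ± 0.44 (adjusted p = 0.910).

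Msmo1, the sterol methyl oxidase, had 113 and 64.3 CPM in newborn sums, 47.6 and 31.5 CPM in young sums, and 20.8 and 58.3 CPM in old sums, with both newborn values above the adult ones (2.24-fold lower in young and 2.24-fold lower in old cells, adjusted p = 0.531 and 0.485). Dhcr7, which performs the last reduction, had 7.41 and 6.64 CPM in newborn sums, 0 and 0.404 CPM in young sums, and 1.29 and 7.47 CPM in old sums, and was read in 10, 1 and 5 cells of these ages. Tm7sf2 and Lbr both encode sterol reductases acting at the same bond, Lbr being also a receptor of the nuclear envelope. Tm7sf2 had 2.72 and 8.34 CPM in newborn sums, 1.42 and 2.14 CPM in young sums, and 2.15 and 1.22 CPM in old sums. Lbr had 20.8 and 28.3 CPM in newborn sums, 13.4 and 2.94 CPM in young sums, and 30.5 and 9.55 CPM in old sums, and its share of cells was 12% in newborn, 2.44% in young and 2.92% in old cells. Both overlap other genes, and about as many of their non-zero counts were odd as even (54.1% and 46.2% even).

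Among the last 3 genes of this step, Nsdhl and Ebp had higher means in old than in newborn cells. Nsdhl, a sterol dehydrogenase, had 19.3 and 30.3 CPM in newborn sums, 11.6 and 30.2 CPM in young sums, and 60.3 and 47.5 CPM in old sums, both old values lying above all others. It averaged 53.9 ± 9.07 CPM in old and 24.8 ± 7.75 CPM in newborn cells (SD, n = 2; log2 fold change 1.12 ± 0.61 SE, adjusted p = 0.486), and old against young differed by 1.37 ± 0.61 (adjusted p = 0.910). The share of cells with a read of Nsdhl did not follow its level: it was 6.02% in newborn, 4.47% in young and 5.42% in old cells. Ebp, the sterol isomerase, was the second highest of the 28 per kilobase (46.2 CPM per kilobase) and had 111 and 48.9 CPM in newborn sums, 132 and 113 CPM in young sums, and 141 and 94.1 CPM in old sums. Hsd17b7, a sterol ketone reductase, had 13.7 and 8.62 CPM in newborn sums, 2.73 and 16.4 CPM in young sums, and 0 and 8.80 CPM in old sums, which overlapped.

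**Figure D2:**
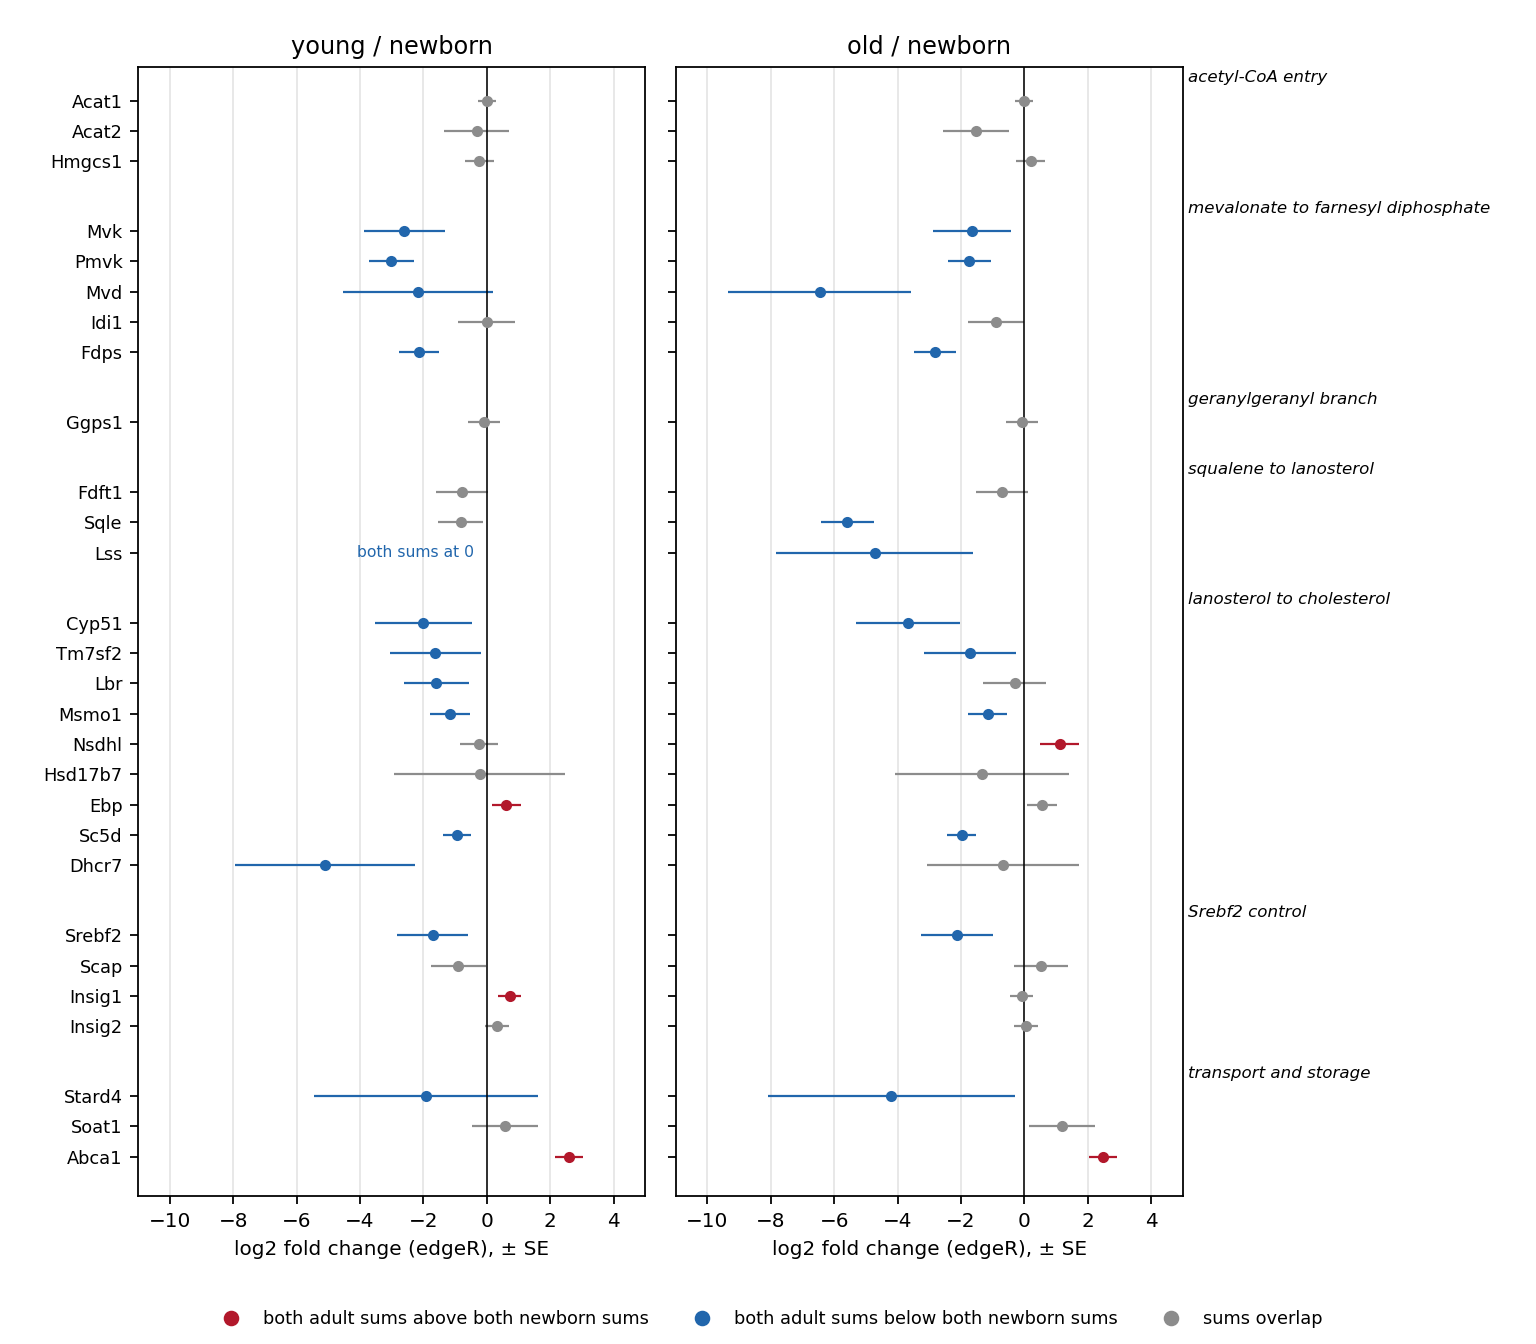
Log2 fold change of the 28 genes from edgeR with its standard error, young over newborn on the left and old over newborn on the right; colour marks whether both adult sums lay above or below both newborn sums, and Lss, at 0 in both young sums, is given no fold. Abca1 lies at 2.60 and 2.49, and Sqle at -0.83 and -5.58.

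Among the 4 genes of Srebf2 control, Srebf2 itself was lower in adult sums and the Insig genes were not. Srebf2 had 7.88 and 14.9 CPM in newborn sums, 3.11 and 3.88 CPM in young sums, and 1.91 and 3.31 CPM in old sums, with every adult value below both newborn ones. It averaged 11.4 ± 4.98 CPM in newborn, 3.49 ± 0.545 CPM in young and 2.61 ± 0.987 CPM in old cells (SD, n = 2). The log2 fold change was -1.71 ± 1.13 SE (adjusted p = 0.608) for young against newborn and -2.13 ± 1.14 (adjusted p = 0.478) for old against newborn. The transcript was read in 30 of 249 newborn (12%), 6 of 246 young (2.44%) and 5 of 240 old cells (2.08%).

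Insig1 had 91.4 and 50.2 CPM in newborn sums, 109 and 125 CPM in young sums, and 66.0 and 67.9 CPM in old sums, and both young sums lay above all others. It averaged 117 ± 11.2 CPM in young and 70.8 ± 29.1 CPM in newborn cells (SD, n = 2; log2 fold change 0.72 ± 0.36 SE, adjusted p = 0.498), and old against young differed by -0.80 ± 0.36 (adjusted p = 0.910). It was the most widely read of the 28 genes, in 54.0% of all kept cells, yet at a median of 69.3 CPM in the cells that had a read, where the 28 genes had a median of 348 CPM. Insig2 had 112 and 60.2 CPM in newborn sums, 121 and 94.4 CPM in young sums, and 86.6 and 93.0 CPM in old sums, and per kilobase of exon over all sums it matched Insig1 (27.3 and 27.4 CPM per kilobase). Scap, the sterol-sensing escort, had 8.03 and 20.7 CPM in newborn sums, 9.69 and 5.74 CPM in young sums, and 13.3 and 27.8 CPM in old sums; both old values lay above both young ones (log2 fold change 1.41 ± 0.87 SE, adjusted p = 0.914).

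Of the 3 transport and storage genes, Abca1 was the one gene of the 28 that stood higher at both adult ages in level and in share of cells. Abca1, which moves cholesterol out of the cell onto apolipoprotein, had 10.9 and 17.9 CPM in newborn sums, 66.3 and 108 CPM in young sums, and 87.4 and 74.7 CPM in old sums. All 4 adult values lay above both newborn values, and the young and old values overlapped. It averaged 87.3 ± 29.7 CPM in young and 14.4 ± 4.91 CPM in newborn cells (SD, n = 2), a 6.05-fold higher level (log2 fold change 2.60 ± 0.44 SE, adjusted p = 0.11), and the old mean of 81.0 ± 8.98 CPM was 5.62-fold the newborn one (2.49 ± 0.44, adjusted p = 0.107). Single cells held 51.9 and 69.7% of the Abca1 reads of the newborn sums, against 15.1 to 41.7% in the adult sums. Without the highest cell of each gene in each sum the log2 fold changes were 3.63 ± 0.54 SE (adjusted p = 0.0569) and 3.76 ± 0.55 (adjusted p = 0.0494). Leaving out that cell takes most from the newborn sums, so the larger differences and smaller p-values are no further support. Abca1 was read in 8 of 249 newborn cells (3.21%, 95% interval 1.4 to 6.23%), 33 of 246 young cells (13.4%, 9.42 to 18.3%) and 39 of 240 old cells (16.2%, 11.8 to 21.5%). Immune markers moved partly with it: 6 such genes summed to 1.48 and 0.716 CPM in newborn sums, 177 and 44.9 CPM in young sums, and 22.1 and 25.4 CPM in old sums, Csf1r making up most of the young values while Ptprc and Cd3e were at 0 in all. Endothelial markers, 5 genes with Cdh5 and Emcn at 0, summed to 23.5 and 5.65 CPM in newborn sums, 82.0 and 44.5 CPM in young sums, and 74.3 and 63.2 CPM in old sums. Plvap made up most of the adult values. Kdr was at 0 in newborn and at 3.19 to 13.8 CPM in adult sums, while Pecam1 went from 11.4 and 0 CPM to at most 1.6 CPM. Keratinocyte markers, 5 genes, summed to 33.7 and 18.9 CPM in newborn sums, 43.6 and 47.3 CPM in young sums, and 70.9 and 57.1 CPM in old sums. Krt10 made up most of these values, at 22.4 and 15.8 CPM in newborn and 43.6 to 59.9 CPM in adult sums. Krt5 went the other way, from 5.11 and 1.07 CPM in newborn sums to 0 in all adult sums, where Krt1 and Epcam were also at 0. Krt14 had 5.45 and 0.197 CPM in newborn sums, 0 in young sums, and 11.1 and 0 CPM in old sums. The part of these 3 lists in the Abca1 level was not tested.

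Stard4, a soluble sterol carrier, had 15.9 and 11.2 CPM in newborn sums, 0 and 7.23 CPM in young sums, and 0 and 1.48 CPM in old sums, and was read in 9 of 249 newborn, 2 of 246 young and 1 of 240 old cells. Soat1, which esterifies cholesterol for storage, had 8.14 and 9.90 CPM in newborn sums, 21.4 and 5.27 CPM in young sums, and 9.28 and 32.3 CPM in old sums, with overlap at every pair of ages.

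After every cell was thinned to 100000 reads, the share of cells with a read was lower in both young than in both newborn sums for 17 of the 28 genes, against 32.9% of all genes, and higher for 2 (Insig1 and Abca1), against 14.2%. It was lower in both old than in both newborn sums for 19 genes, against 42.1% of all genes, and higher for Abca1 alone, against 11.8%. Old against young, 4 genes were lower in share (21.5% of all genes) and 4 higher (8.3%). Over the 28 genes the median share of cells was 12% in newborn, 4.07% in young and 3.75% in old cells, and 11, 20 and 20 of the genes lay under 10% of cells at these ages. Adult cells also had fewer genes read in all, as given above, and the part of this in the shares was not tested.

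**Figure D3:**
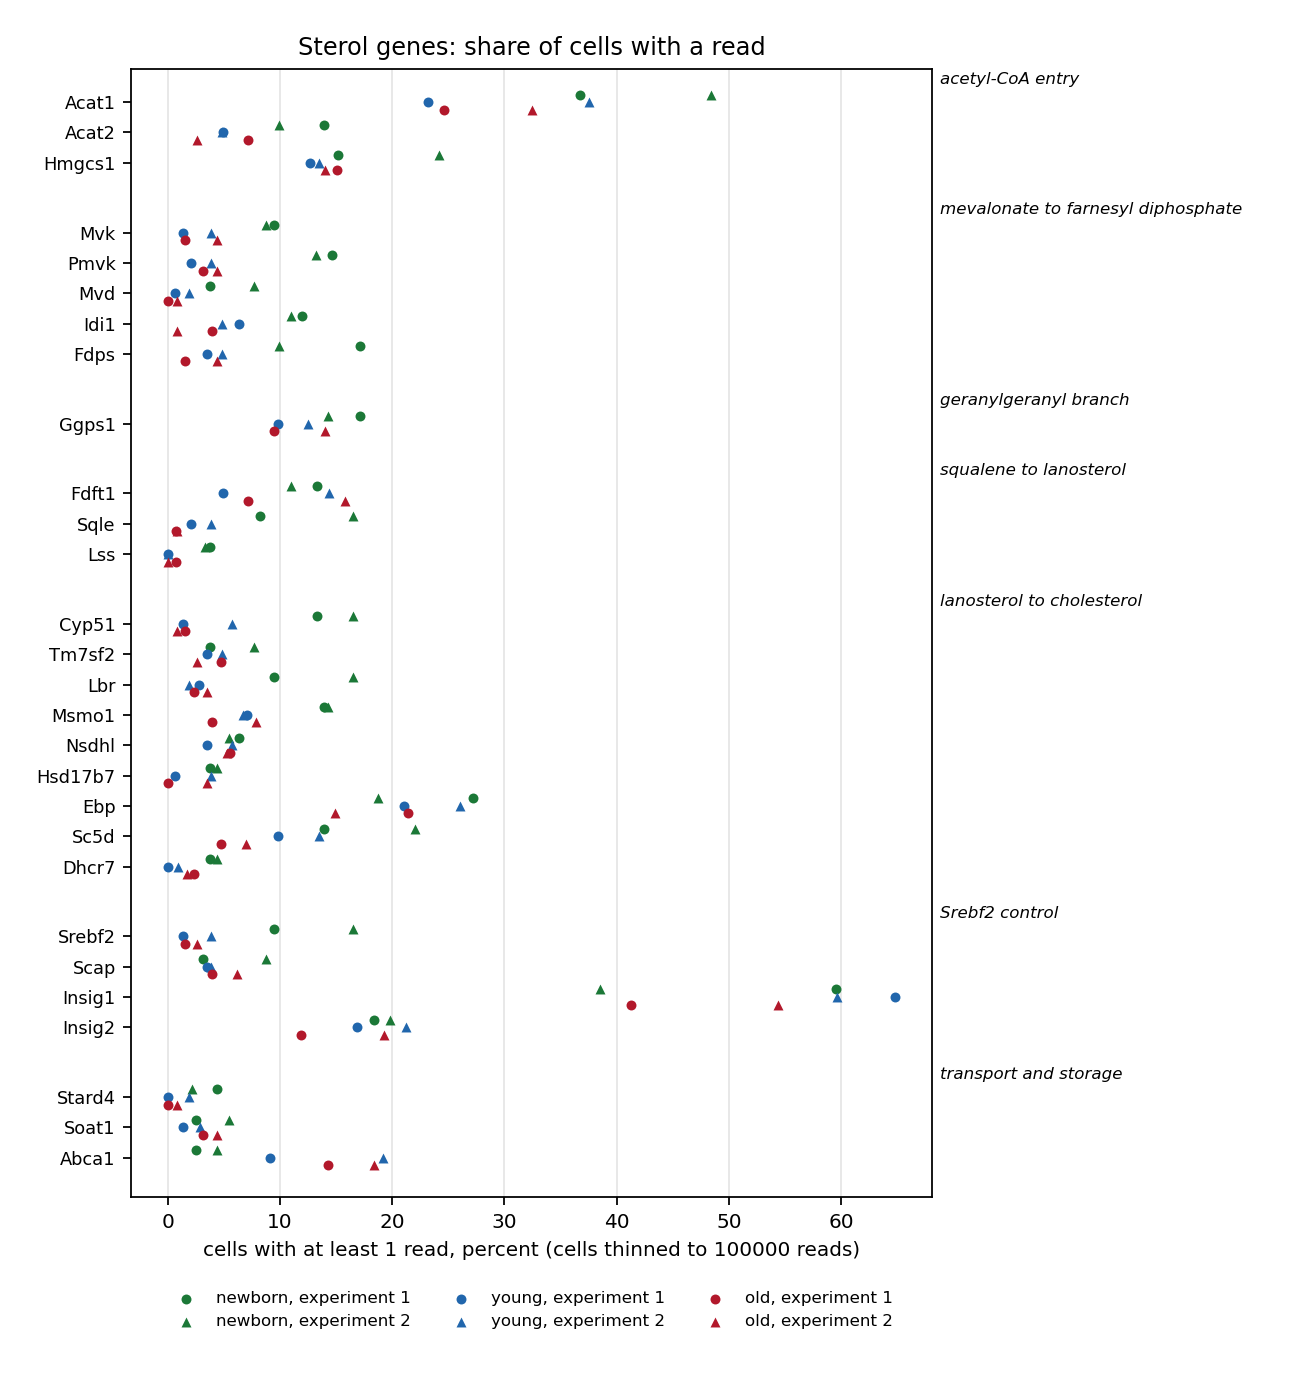
Percent of cells with at least 1 read of each of the 28 genes after thinning to 100000 reads per cell, for the 6 sums; circles are experiment 1 and triangles experiment 2. Newborn points lie furthest right for Pmvk, Fdps, Cyp51 and Srebf2, Insig1 lies between 38.5 and 64.8%, and Abca1 is furthest left in newborn cells at 2.53 and 4.40%.

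A newborn cell had reads of 3.61 and 3.84 of the 28 genes on average in experiments 1 and 2, a young cell of 2.19 and 2.88, and an old cell of 1.98 and 2.48. The newborn mean was above the young and above the old mean on 9 of 9 plates, and the old mean was below the young mean on 6 of 9. Set against all genes read in the same cells, the 28 made up 0.182% in newborn, 0.137% in young and 0.137% in old cells. Cells with reads of 6 or more of the genes numbered 49 of 249 newborn (19.7%), 9 of 246 young (3.66%) and 2 of 240 old cells (0.833%). The plates carry cells of the same 2 experiments and are not replicates of an age. With 2 sums against 2, an exact two-sided permutation test cannot go below p = 0.333. Newborn cells with reads of 2 or more cycling markers, 22 and 9 cells in experiments 1 and 2, had 5.41 and 6.33 of the 28 genes. The other newborn cells had 3.32 and 3.56. Cells with these markers also had more genes read in all, at medians of 2554 and 2867 against 1727 and 2172.5. The part of cycling in the newborn counts was not tested.

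**Figure D4:**
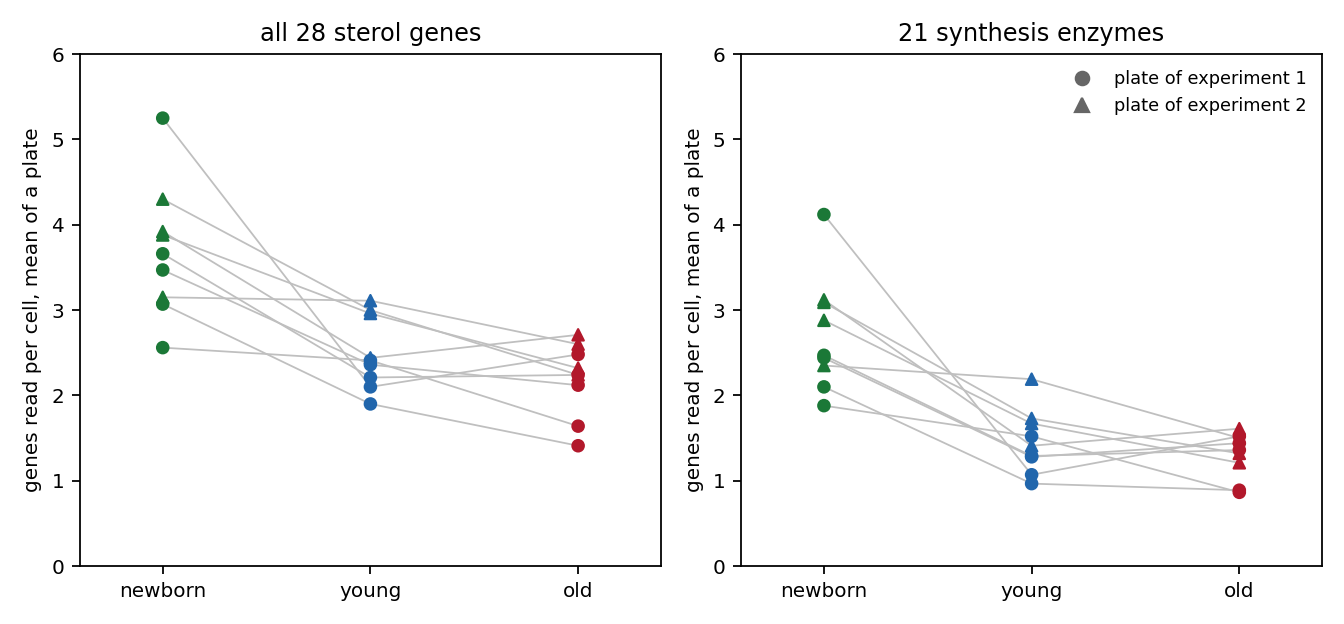
Mean number of sterol genes read per cell at 100000 reads, for newborn, young and old cells of each of the 9 plates, for all 28 genes on the left and the 21 synthesis enzymes on the right; a line joins the ages of 1 plate. On every plate the newborn mean is above both adult means, most narrowly on 1 plate of experiment 2 at 3.15 newborn and 3.11 young.

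Other tests gave other counts of calls. DESeq2, on the same 16684 genes, called 4 sterol genes for young against newborn (14.0% of all genes), 7 for old against newborn (16.8%) and 1, Sqle, for old against young (6.19%). The remaining tests used only genes read in 10% or more of the cells of some age, 18 sterol genes among 6951, and this filter follows the difference tested. Cyp51, Fdps, Lbr, Pmvk, Sqle, Srebf2, Acat2, Idi1 and Msmo1 passed it through newborn cells alone, and Abca1 through adult cells alone, so calls of these genes are described and support nothing. In limma on cell means of log2(CPM + 1), where every cell has the same weight, Abca1 was called higher and the first 6 of these genes lower in young against newborn cells (6.53% and 13.0% of genes called higher and lower). Old against newborn, Abca1 was called higher and all 9, with Sc5d, lower (5.67% and 20.6% of genes), and Sc5d had passed the filter in newborn and young cells. Old against young, limma called no sterol gene and 0.115% of all genes. With edgeR on the filtered genes, Abca1 and Pmvk were called for young against newborn (7.06% of genes), Abca1, Sqle, Fdps and Sc5d for old against newborn (7.87%), and none for old against young (0.129%).

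Other genes around the pathway gave no call by edgeR either: 0 of 7 tested genes of synthesis, uptake and Srebf processing, 0 of 16 of sterol efflux, transport and LXR signalling, 0 of 15 of the isoprenoid branches and 0 of 11 of fatty acid synthesis, in each of the 3 comparisons. Of these 49 genes, 4 had an unadjusted p under 0.05 for young against newborn (13.3% of all genes), 8 for old against newborn (15.2%) and 1 for old against young (4.85%). DESeq2 called 4, 10 and 4 of them in these comparisons, against 14.0%, 16.8% and 6.19% of all genes. The 4 groups' median log2 fold changes were -0.75, 0.60, 0.01 and -0.43 for young against newborn and -0.46, 0.55, -0.64 and -0.58 for old against newborn. The efflux group was the one with a positive median in both, and 7 of its 16 genes were higher in both young than in both newborn sums and 3 lower, against 22.1% and 25.1% of all genes.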

How the data were processed

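Smart-seq2 counts were deposited by the authors as raw whole-number counts per gene and cell, 1 table per plate run; the genome build GRCm38 and FastQC are named in the submitters' processing notes, while the aligner, the counter, the strand setting and the treatment of shared reads are each not given in the sources used here. Of non-zero counts 75.2% were even, as when both mates of a pair are counted; 17 of the 28 genes had even counts only, and these were the 17 without an exon overlap or a near-identical copy (at least 300 bases at 90% identity, minimap2 2.31-r1302). The other 11 genes (43.4 to 94.6% even) are uncertain: Acat2, Hmgcs1, Idi1, Fdps, Ggps1, Fdft1, Lss, Cyp51, Tm7sf2, Lbr and Scap. Of 1049 labelled columns 5 held no value. Wells of 2 plates with 2 runs were added (183 wells). Cells were kept with at least 50000 reads, 1000 genes and at most 25% mitochondrial reads; no doublet caller was run on the singly sorted cells. Gene names and positions came from GENCODE M21 (GRCm38).

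Sums per age and experiment were compared with edgeR 4.0.16 (TMM factors, filterByExpr, robust quasi-likelihood fit over all 6 sums, 3 residual degrees of freedom before moderation, common biological coefficient of variation 1.13), p-values being adjusted over all 16684 genes with a threshold of 0.05. CPM uses TMM library sizes. DESeq2 1.42.0 and limma 3.58.1 (pseudocount 1) were alternatives. The fitting script was tested on simulated data. Values were given in full for genes past the threshold, for genes whose sums did not overlap with a 2-fold difference of means and at least 5 CPM, and for the highest gene of each step per kilobase; the remaining genes are also given by sum. The genes and lists were chosen with earlier results of these data known. Over all tested genes, deviations of same-numbered sums correlated at -0.00017, 0.0125 and 0.0107. With values this noisy, such a correlation cannot exclude an effect shared by the sums of an experiment. Cells of experiment 2 had more genes read than cells of experiment 1 at every age, as given above.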

Additional observations from a re-analysis of the deposited data

How the results depend on the processing

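No log2 fold change followed across settings turned its sign: 499 values kept their side of the threshold and 34 passed it. Only comparisons whose sums did not overlap and whose means differed 2-fold were followed, so a kept sign says little. Signs did turn among sterol genes not followed. Insig1, old against newborn, had -0.08 by edgeR on all tested genes, 0.02 in thinned cells and 0.14 without its highest cells. Nsdhl, young against newborn, had -0.25, 0.07 and 0.01 in these settings. The sterol genes called were 0 in each comparison by edgeR on all tested genes. They became 2 (young against newborn) and 4 (old against newborn) when only genes read in 10% of the cells of an age were tested. Pmvk, Sqle and Fdps passed this filter through newborn cells alone and Abca1 through adult cells alone, so calls of these genes support nothing. With DESeq2 the calls were 4, 1 and 7 (young against newborn, old against young, old against newborn). Limma on cell means gave 7 and 11 (young and old against newborn). Old against newborn, thinned cells gave 1 (Sqle) and leaving out each gene's highest cell gave 1 (Abca1). That cell held more of the newborn than of the adult Abca1 reads, so leaving it out widens the difference. Over all genes, the 130 called for young against newborn became 491 with the 10% filter, 280 in thinned cells, 246 without the highest cells, 2343 with DESeq2 and 1360 with limma; the 156 for old against newborn became 547, 322, 271, 2797 and 1825; the 0 for old against young became 9 with the 10% filter, 2 without a filter on low counts, 1033 with DESeq2 and 8 with limma. With the experiment as a replicate block, 25 and 51 genes were called for young and for old against newborn, and no sterol gene was called. Leaving out 1 sum at a time gave 0 to 42 and 0 to 47 genes, with 0 sterol genes called; the lone sum of an age is then assumed to vary like the others. The sterol genes read per newborn cell, 3.69, were 3.99 without thinning. In an alternative chosen after the data were seen, they were 3.41 without cells that had 2 or more cycling markers. The part of cycling in these counts was not tested. Of shares of cells, 94 kept their value within counting error and 14 moved. Sparse reads limit the sums. In the sums of experiments 1 and 2, 1 cell held over 50% of the reads of 2 and 7 sterol genes in newborn cells. The counts were 10 and 12 genes for the young sums, and 10 and 9 for the old sums. With the cells of both experiments pooled, the counts were 1 for newborn, 6 for young and 8 for old cells.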

Other observations

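Of the genes around the 28, 4 of sterol efflux and oxysterol metabolism are given here, picked after their values were seen. Npc2, a lysosomal cholesterol carrier, had 333 and 214 CPM in newborn sums, 901 and 1011.8 CPM in young sums, and 897 and 1048.9 CPM in old sums, with reads in 62.0 and 58.2% of newborn cells, 85.2 and 90.4% of young cells, and 81.7 and 86.8% of old cells. By edgeR it had an adjusted p of 0.0928 for young and 0.0813 for old against newborn (log2 fold change 1.80 ± 0.28 and 1.83 ± 0.28 SE). Mylip, a ubiquitin ligase switched on by LXR, had 20.7 and 31.6 CPM in newborn sums, 86.3 and 128 CPM in young sums, and 70.9 and 85.1 CPM in old sums (adjusted p = 0.137 and 0.185). Abcg1, an exporter switched on by LXR as Abca1 is, had 1.74 and 0.014 CPM in newborn sums, 30.8 and 12.9 CPM in young sums, and 38.7 and 12.3 CPM in old sums (adjusted p = 0.455 and 0.385). Ch25h, which makes an oxysterol that holds back Srebf2 cleavage, went the other way: 102 and 97.3 CPM in newborn sums, 0 and 4.38 CPM in young sums, and 0 and 0 CPM in old sums (adjusted p = 0.531 and 0.235). At most 0.962% of the cells of any adult sum had a read of it, against 17.1 and 24.2% of newborn cells.

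In the 126 wells left out for low quality, 19 of the 28 sterol genes had no read in any well, and the share of wells with a read was at most 3.17% for any of them.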
